A study of Mus musculus with 12 samples.

Results

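Imprinted genes are transcribed mainly or only from the allele inherited from one parent. Of the 32 autosomal imprinted genes described here, chosen by symbol from the standard catalogue of mouse imprinted genes, 19 are known to be expressed from the paternal allele and 12 from the maternal allele, while Gnas uses different alleles for different transcripts. All 32 were among the 45706 genes of the blastocyst table, and 20 were among the 13009 genes of the embryonic stem (ES) cell table. The 12 members absent from the ES cell table were H19, Airn, Meg3, Rian, Mirg and Kcnq1ot1, which are noncoding, and the protein-coding Nnat, Dlk1, Rtl1, Magel2, Nap1l5 and Ascl2.

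The study compared Dis3L WT and Dis3L KO mice, which lack DIS3L, a 3′ to 5′ exonuclease of the RNA exosome in the cytoplasm. The labels list 12 samples: 3 blastocysts of each genotype, collected 96 h after the hormone hCG was injected, and 3 ES cell samples of each genotype. Strain, sex, the deleted part of Dis3l and the parentage of the embryos are not given in the sources used here. Each blastocyst library came from a single embryo, by Tn5 tagmentation of cDNA, a method that does not mark the strand. ES cells shared their dishes with inactivated mouse fibroblast feeders, which limits them as a pure population. Their libraries were stranded and depleted of ribosomal RNA, and whether the reads were counted by strand is not given in the sources used here. Whether the ES cell samples of a genotype are separate lines is not stated, so p-values may measure a technical spread only.

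Imprinting is set in the germ line, where DNA methylation is placed on one parental copy of an imprinting control region, and is kept through the wave of demethylation in the preimplantation embryo. Within a cluster, a long noncoding RNA read from the unmethylated copy often silences its neighbours on the same chromosome. A smaller group of genes is imprinted through histone methylation inherited from the oocyte, and Slc38a4 is one of them. The protein-coding members include regulators of fetal and placental growth, among them the growth factor IGF2, its scavenger receptor IGF2R, the adaptor GRB10 and the cell cycle inhibitor CDKN1C. The deposited data do not separate the parental alleles, so the values below are totals over both copies.

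Promoter sequences are shown for the members whose fold change had an unadjusted p-value under 0.05 in one of the tables and that have an entry in the RefSeq promoter table, which covers 250 bases before to 50 bases after each start. Cdkn1c belongs to the same set and is named only. All are on GRCm38.p6, read 5′ to 3′ on the gene's own strand, with CpG dinucleotides in capitals, since CpG methylation is what marks most imprinted loci. The windows are chr7:143296498-143296797, minus strand, for Kcnq1ot1, chr17:12741061-12741360, plus strand, for Airn, chr11:12037371-12037670, minus strand, for the most upstream Grb10 entry and chr15:97055907-97056206, minus strand, for the most upstream Slc38a4 entry.
Kcnq1ot1: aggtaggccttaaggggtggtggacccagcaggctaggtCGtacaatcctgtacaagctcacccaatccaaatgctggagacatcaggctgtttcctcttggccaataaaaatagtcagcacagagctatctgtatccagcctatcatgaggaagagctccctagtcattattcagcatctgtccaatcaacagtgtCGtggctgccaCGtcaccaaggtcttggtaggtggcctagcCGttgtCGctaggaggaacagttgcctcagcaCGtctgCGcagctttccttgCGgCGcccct
Airn: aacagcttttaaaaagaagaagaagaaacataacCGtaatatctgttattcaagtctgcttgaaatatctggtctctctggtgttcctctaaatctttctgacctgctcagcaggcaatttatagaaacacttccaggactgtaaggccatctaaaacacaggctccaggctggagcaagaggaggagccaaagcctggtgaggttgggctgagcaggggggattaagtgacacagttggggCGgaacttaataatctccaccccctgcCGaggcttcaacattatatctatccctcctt
Grb10: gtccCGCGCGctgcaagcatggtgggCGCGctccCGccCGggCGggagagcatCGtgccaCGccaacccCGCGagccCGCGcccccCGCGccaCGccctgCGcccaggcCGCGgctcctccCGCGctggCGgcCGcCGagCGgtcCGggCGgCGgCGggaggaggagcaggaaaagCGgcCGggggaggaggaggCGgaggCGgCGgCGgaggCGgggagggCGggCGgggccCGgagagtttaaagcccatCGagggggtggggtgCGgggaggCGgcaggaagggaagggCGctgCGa
Slc38a4: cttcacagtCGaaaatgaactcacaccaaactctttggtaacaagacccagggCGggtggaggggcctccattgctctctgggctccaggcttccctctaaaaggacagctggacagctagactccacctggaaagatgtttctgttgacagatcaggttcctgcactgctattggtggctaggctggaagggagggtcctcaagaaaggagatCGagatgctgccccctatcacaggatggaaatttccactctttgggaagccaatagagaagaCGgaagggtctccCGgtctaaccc

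The Grb10 window held 45 CpG dinucleotides, the Kcnq1ot1 window 9, the Slc38a4 window 5 and the Airn window 3, against a median of 7 over all 32851 promoters in the table. Promoters were found for 25 of the 32 members, 40 promoters in all, and their median was 12 CpG. The letters TGCCGC, the core that the imprint-keeping zinc finger protein ZFP57 recognises when methylated, were searched on both strands. They occurred in 10 of the 40 member promoters, those of 9 genes, and in 11.6% of all promoters of the same length. The 9 genes were Nnat, Mest, Nap1l5, Zim1, Snrpn, Igf2, Plagl1, Grb10 and Meg3. A match describes the letters only, and these windows start from a transcript and need not overlap the imprinting control region.

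The deposited tables hold 1 row per gene with DESeq2's statistics and no value per sample, and they do not state which genotype a positive fold change favours. Results are therefore given for the positive and the negative side of the comparison. The mean of normalised reads in each row is a sum of whole reads weighted by a fixed step for each count column, which allowed the reads of each column to be solved: 6 columns, 3 a side, in blastocysts and 4 columns, 2 a side, in ES cells, although the labels list 6 ES cell samples. Columns carry an arbitrary number within a side and were assigned to no sample or genotype. In blastocysts the columns' size factors ran from 0.695, in negative-side column 3, to 1.62, and in ES cells from 0.759 to 1.25. Values per column are normalised reads unless raw reads are named. Members took up 0.0647% of the summed means in blastocysts and 0.293% in ES cells. These shares cannot be set against each other. The first covers 32 members among genes of all types, the second 20 among protein-coding genes with a mean of at least 2.08.

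Dis3l itself lies on chr9:64306756-64341288. In blastocysts its normalised reads were 18.6, 8.12 and 0 on the positive side, against 6.18, 4.46 and 11.5 on the negative side, with overlapping sides. The authors' deposited table gives it a log2 fold change of 0.28 ± 1.91 (SE) and an adjusted p of 0.997. In ES cells it had 11.2 and 10.5 normalised reads on the positive side, set against 37.1 and 37.7 on the negative side. In the authors' deposited table this is a log2 fold change of -0.88 ± 0.33 with an adjusted p of 0.445, so neither table called the targeted gene changed. Since the deleted part is not known, these reads check the labels only in part.

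Of the 8 trophectoderm, 8 pluripotent and 7 primitive endoderm markers, every one had reads in blastocysts, and 6 of 8 fibroblast markers, Col1a1 and Col3a1 among them, were at 0. Only part of the markers could be solved per column. The summed normalised reads of Gata2, Tfap2c and Elf5, which hold 7.73% of the trophectoderm list's summed means, ran from 1578 to 1995 on the positive side and from 1153 to 1580 on the negative side. For 5 pluripotent markers, 23.5% of that list's means, the range was 677 to 1375 against 991 to 1453. For 5 primitive endoderm markers, 20.6% of the means, it was 1310 to 1940 against 1894 to 2238. None of these markers was called. An unadjusted p under 0.05 was found for 2 of 8 pluripotent markers, Nanog and Pou5f1, both lower on the positive side, for 3 of 8 trophectoderm markers and for 1 of 6 tested primitive endoderm markers, Sox7, higher. Over all tested genes this share is 6.21%, 2.68% higher and 3.53% lower. The trophectoderm markers were Gata3, higher, and Krt8 and Krt18, lower, and the keratins, whose columns were not solved, have log2 fold changes of -0.87 ± 0.36 and -0.63 ± 0.29 in the authors' deposited table. In bulk samples fewer cells of a type and less RNA per cell cannot be told apart. The part of embryo composition in the imprinted genes' values was not tested.

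No imprinted gene was called changed in blastocysts: 0 of the 24 members with an adjusted p-value fell under 0.05 in the authors' deposited table, whose background is 0.0986% of 15209 tested genes. An unadjusted p under 0.05 was found for 3 of the 24, beside 6.21% of all tested genes. Of these, 1 was higher and 2 were lower on the positive side, where the shares of all tested genes are 2.68% and 3.53%. Those were Cdkn1c and Airn, lower on the positive side, and Kcnq1ot1, higher. The fold changes were positive for 11 members and negative for 13, beside a positive share of 48.3% over all tested genes, with a median log2 fold change of -0.05, beside -0.04 for all tested genes. The median size of the log2 fold change, regardless of sign, was 1.12 for members and 0.64 for all tested genes, and the median standard error was 1.32 against 0.92. Paternally expressed members (14 tested) had a median log2 fold change of -0.34, with 6 positive, and maternally expressed members (9 tested) one of 0.00, with 5 positive.

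Of the 32 members, 5 had no reads in blastocysts: Kcnq1, Nap1l5, Ndn, Magel2 and Zim1. Another 8 had a mean above 0 and under 10, and 19 had a mean of at least 10. Phlda2 has a fold change and no p-value in the authors' deposited table, and Nnat and Rtl1, with 2 raw reads each, have a p-value and no adjusted one. The sides did not overlap for 1 of the 27 members with reads, Slc38a4. Over the 7260 genes with an adjusted p-value, solved reads and a mean up to 40, the sides did not overlap in 7.0% of cases. The positive side was higher in 3.14%, as for Slc38a4, and lower in 3.86%. The 27 members include Phlda2, Nnat and Rtl1, which lack an adjusted p-value. Slc38a4, with a mean of 641, lies above the limit of 40, where the share is not known.

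**Figure D1:**
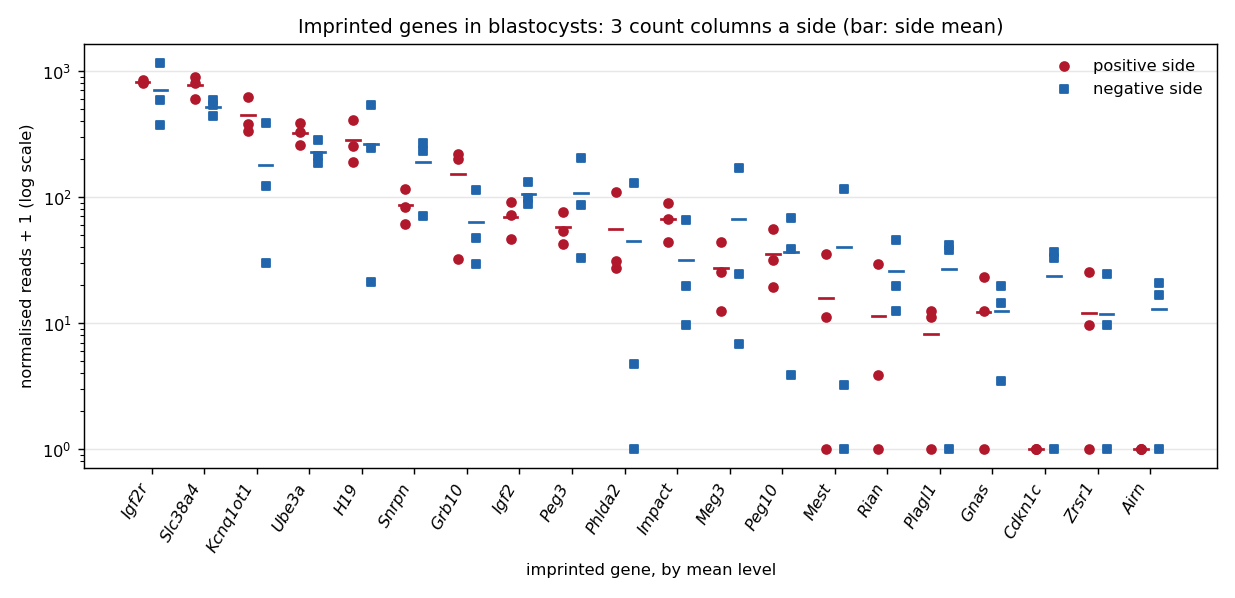
Normalised reads plus 1 (vertical log axis) of the 20 imprinted genes with a mean of at least 10 or an unadjusted p under 0.05 in blastocysts, 1 point for each count column, 3 a side, with a bar at each side's mean. The sides lie apart for Slc38a4 alone, and Cdkn1c and Airn have reads on the negative side only.

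Per kilobase of exon, the scale on which genes can be compared, the highest members in blastocysts were Slc38a4 with 150 normalised reads per kb, H19 with 111, Igf2r with 81.7, Snrpn with 63.1 and Phlda2 with 43.8. Slc38a4 ranked at percentile 94.6 of the 17288 genes with reads and a length. This order is not firm at any step: for each neighbouring pair from Slc38a4 down to Phlda2, the gene with the lower mean was the higher one per kb in 2 of the 6 columns. Igf2 followed with 15.2 per kb and Ube3a with 13.3.

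Of the 3 tested members of the Kcnq1 domain on chromosome 7, 2 had an unadjusted p under 0.05, beside 6.21% of all tested genes. They were 1 higher and 1 lower on the positive side, where the shares of all tested genes are 2.68% and 3.53%. Kcnq1ot1 (chr7:143212155-143296549) is the paternally expressed noncoding RNA that runs antisense inside Kcnq1 and silences the domain's protein-coding genes in cis. Its normalised reads were 617, 331 and 379 on the positive side, against 121, 388 and 28.8 on the negative side. Negative-side column 2 thus lay among the positive-side columns, while the other negative-side columns lay below all of them. In the authors' deposited table Kcnq1ot1 has a log2 fold change of 1.30 ± 0.65 (SE), an unadjusted p of 0.0435 and an adjusted p of 0.772. As a ratio of side means it was 0.80 on the log2 scale without negative-side column 3 and 2.55 without negative-side column 2. Tagmented libraries do not keep the strand, and 121 exonic bases are shared with Kcnq1, which was listed at 0. Kcnq1ot1 has 93.1 kb of exon, so unspliced Kcnq1 RNA read inside it cannot be told apart. The 0 of Kcnq1 covers its own exons only.

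Cdkn1c (chr7:143458350-143461050), the maternally expressed inhibitor of cyclin-dependent kinases, had no reads in any positive-side column. On the negative side it had 0, 32 and 22 raw reads, or 0, 35.7 and 31.6 normalised reads. Negative-side column 1 was therefore at 0 like the positive side, and the sides met there. In the same 3 negative-side columns Kcnq1ot1 had 121, 388 and 28.8 normalised reads, and a link between the 2 genes was not tested. Blastocyst read numbers are nearly all even, so the floor was taken as 3 fragments of 2 reads per column. Set at this assumed floor, the positive side lay 3.9-fold below the negative-side mean, and 2.8-fold below it without the highest column. Neither fold is a minimum, since negative-side column 1, with the largest size factor of 1.62, was at 0 as well. The authors' deposited table gives Cdkn1c a log2 fold change of -7.02 ± 2.44, an unadjusted p of 0.00408 and an adjusted p of 0.414, the smallest adjusted p of any member in blastocysts; against a side at 0 the fitted value is not a bound. An antisense gene model, Gm44732, covers 30.7% of its exonic bases, so its reads are uncertain.

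Phlda2, a maternally expressed restrainer of placental growth, had 30.0, 26.4 and 107 normalised reads on the positive side, against 3.71, 127 and 0 on the negative side. The highest value was thus on one side and the next highest on the other. Ascl2, a transcription factor of trophoblast progenitors, had 8, 0 and 0 raw reads against 68, 0 and 0, so that 1 column on each side held all of them.

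In the Igf2r cluster on chromosome 17, Airn is the paternal noncoding RNA that overlaps and silences Igf2r. Airn (chr17:12741311-12860122) had no reads on the positive side and 32, 14 and 0 raw reads on the negative side, where it reached 19.8 and 15.6 normalised reads. Set at the assumed floor of 3 fragments per column, the positive side lay 2.1-fold below the negative-side mean, and 1.4-fold below it without the highest column. Neither fold is a minimum, since negative-side column 3 was at 0 as well. The authors' deposited table lists a log2 fold change of -6.10 ± 2.93, an unadjusted p of 0.0371 and an adjusted p of 0.769. Igf2r, the maternally expressed receptor that clears IGF2, had 819, 800 and 841 normalised reads on the positive side, against 372, 1146 and 584 on the negative side. The positive-side columns lay close together, inside the wide range of the negative side, and the authors' deposited table has a log2 fold change of 0.23 ± 0.39. Airn and Igf2r overlap in their gene bodies and share no exonic base.

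H19 and Igf2 share an imprinting control region and enhancers, and are expressed from opposite alleles. H19 had 403, 254 and 187 normalised reads on the positive side, against 241, 531 and 20.1 on the negative side, so that both extremes were on the negative side. Igf2 had 89.9, 71.0 and 45.7 on the positive side, against 130, 87.0 and 97.8 on the negative side, with an overlap at the positive side's highest column. The log2 fold changes in the authors' deposited table were 0.09 ± 0.72 for H19 and -0.61 ± 0.60 for Igf2. An overlapping gene model on the same strand, Gm49394, covers 62.8% of the exonic bases of Igf2. H19 changed sign when single columns were left out, from -0.46 without negative-side column 3 to 1.10 without negative-side column 2.

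Grb10 (chr11:11930508-12038683), which encodes an adaptor that restrains insulin and growth factor signalling and is maternally expressed in most tissues, had 31.4, 199 and 219 normalised reads on the positive side. Its negative-side columns had 28.4, 111 and 46.0. Positive-side columns 2 and 3 lay above all negative-side columns, and positive-side column 1 lay among them. The authors' deposited table lists a log2 fold change of 1.28 ± 0.77 with an unadjusted p of 0.0972.

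Slc38a4 (chr15:96994823-97055956), a sodium-coupled transporter of neutral amino acids with high expression in placenta, had 597, 897 and 804 normalised reads on the positive side, against 531, 582 and 434 on the negative side. The lowest positive-side value was above the highest negative-side value by a small margin. Its log2 fold change was 0.57 ± 0.31 in the authors' deposited table, with an unadjusted p of 0.0688 and an adjusted p of 0.811. The log2 ratio of side means stayed between 0.44 and 0.72 when each column was left out in turn.

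The Dlk1-Dio3 cluster on chromosome 12 expresses noncoding RNAs and microRNAs from the maternal allele and protein-coding genes from the paternal one. Meg3 had 24.3, 42.6 and 11.4 normalised reads on the positive side, against 23.5, 167 and 5.75 on the negative side. Rian, which hosts small nucleolar RNAs, had 2.86, 28.4 and 0 against 18.6, 44.6 and 11.5. Mirg, whose span holds 14 RefSeq microRNA hairpins, had 7.14, 6.09 and 16.0 against 11.1, 17.8 and 0. Summed over the 3 RNAs, negative-side column 2 was highest with 230 and negative-side column 3 lowest with 17.3, while the positive side lay between 27.4 and 77.1. Without negative-side column 2 the log2 ratio of Meg3 turned from negative to 0.81. In the authors' deposited table the log2 fold change of Meg3 is -1.33 ± 1.10, that of Rian -1.26 ± 1.55 and that of Mirg 0.00 ± 1.77. The paternal genes were near 0: Dlk1, a Notch-family growth regulator, had 8 raw reads in 1 negative-side column, and Rtl1, a retrotransposon-derived placental gene, had 2 in 1 positive-side column.

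In the Peg3 and the Snrpn-Ube3a domains, Peg3 and Snrpn had negative fold changes and Usp29 and Ube3a positive ones, and none passed the test. Peg3, a zinc finger protein of growth and maternal behaviour, had 41.4, 75.1 and 52.6 normalised reads on the positive side, against 85.3, 203 and 31.6 on the negative side. Snrpn, a splicing protein from the locus of Prader-Willi syndrome, had 114, 82.2 and 59.4 against 229, 69.1 and 265. For each of these 2 genes, 1 negative-side column lay within or below the positive side and the other columns lay above all of it. The authors' deposited table has log2 fold changes of -0.92 ± 0.75 for Peg3 and -1.14 ± 0.60 for Snrpn, the latter with an unadjusted p of 0.0593. Ube3a, the ubiquitin ligase of Angelman syndrome, imprinted mainly in neurons, had 385, 258 and 325 normalised reads on the positive side, against 281, 212 and 184 on the negative side. Its log2 fold change in the authors' deposited table is 0.51 ± 0.39. Usp29, a ubiquitin protease, had reads in 3 columns, at most 18.3 normalised reads.

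At the remaining loci, Impact, an inhibitor of the kinase GCN2, had 88.5, 42.6 and 66.3 normalised reads on the positive side, against 18.6, 64.7 and 8.63 on the negative side. Mest, a hydrolase-like gene of mesoderm, had 34.3, 10.1 and 0 against 115, 2.23 and 0, so that 1 column set its negative-side mean. Plagl1, a zinc finger growth suppressor, had 11.4, 10.1 and 0 against 37.1, 0 and 40.3. Peg10, a retrotransposon-derived gene needed for the placenta, had 54.3, 30.4 and 18.3 against 66.8, 37.9 and 2.88. Gnas, the stimulatory G protein alpha subunit, and Zrsr1, a U2AF-related splicing factor, had means of 11.4 and 10.8 in the authors' deposited table, each with columns from 0 up to at most 24.4. Sgce, the epsilon-sarcoglycan gene next to Peg10, had reads in 1 column of each side. The log2 fold changes of these genes in the authors' deposited table ran from -1.83 ± 1.76 for Plagl1 to 2.03 ± 2.93 for Sgce, each with an interval that includes 0.

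**Figure D2:**
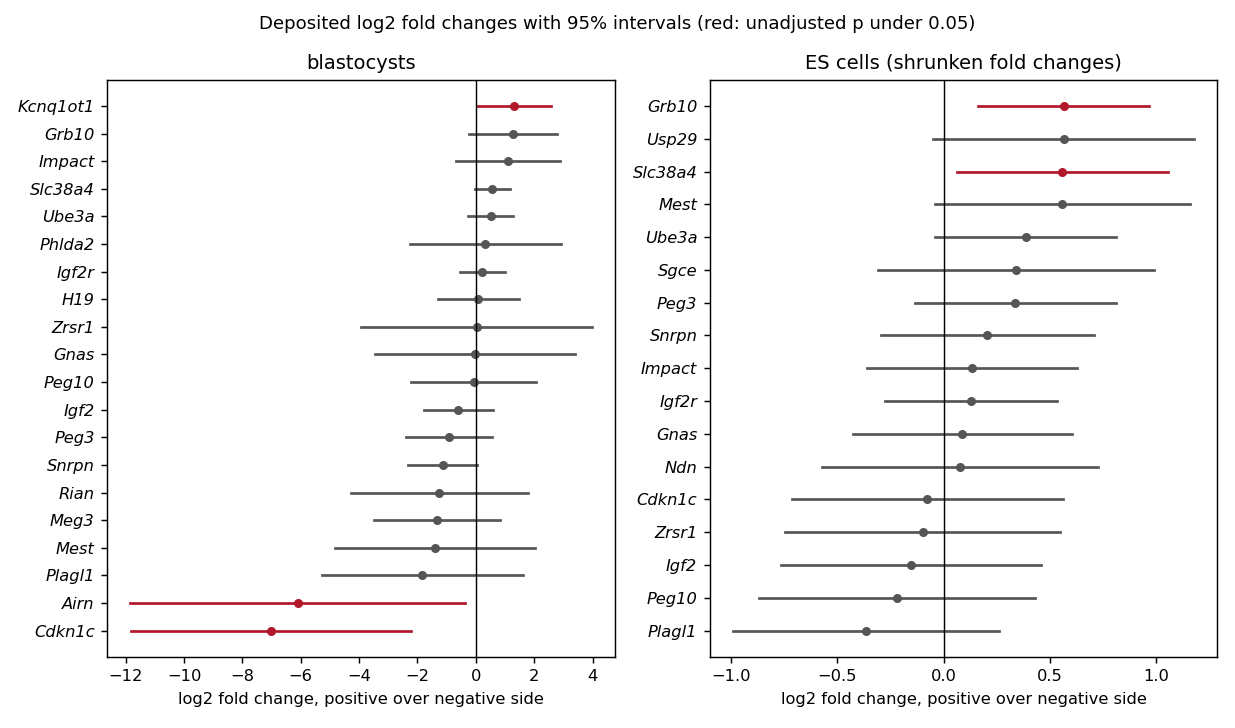
The authors' deposited log2 fold change, positive over negative side, with its 95% interval (horizontal axis) for the imprinted genes with a mean of at least 10 or an unadjusted p under 0.05, in blastocysts (left) and ES cells (right, where fold changes are shrunken and the axis is narrower). Red marks the 3 and 2 genes with an unadjusted p under 0.05, for which the interval excludes 0.

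No imprinted gene was called changed in ES cells either: 0 of the 17 members with an adjusted p-value, where the authors' deposited table called 28 of 10739 genes, 0.261%. Grb10 and Slc38a4 had an unadjusted p under 0.05, both higher on the positive side. That is 2 of 17 members, beside 5.62% of all tested genes in either direction, 2.21% in that direction and 3.42% in the other. The fold changes were positive for 12 members and negative for 5, beside a positive share of 50.0% over all tested genes, with a median log2 fold change of 0.13, beside 0.00 for all tested genes. Fold changes in this table are shrunken towards 0 and cannot be set against those of blastocysts by size. By allele, 8 of the 12 tested paternally expressed members and 3 of the 4 tested maternally expressed members were positive.

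The sides did not overlap for 9 of the 20 members listed, 7 higher and 2 lower on the positive side. With 2 columns a side this was so for 40.8% of the 9867 genes with an adjusted p-value, solved reads and a mean up to 350. By direction, 20.0% were higher and 20.8% lower. The 20 members include Kcnq1, Phlda2 and Zim1, which lack an adjusted p-value. Over both directions together, the members' count of 9 is close to the share of 40.8%. Of the 20 members, 7 were higher, beside 20.0%, and 2 were lower, beside 20.8%. Grb10, Igf2r and Ube3a have means above 350, outside the genes behind those shares. The 7 were Grb10, Slc38a4, Ube3a, Peg3, Igf2r, Usp29 and Zim1, and the 2 were Zrsr1 and Kcnq1.

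Grb10 in ES cells had 898 and 996 normalised reads on the positive side, against 600 and 621 on the negative side, so that the columns of a side were close together and the sides far apart. The authors' deposited table gives a log2 fold change of 0.56 ± 0.21 (SE), an unadjusted p of 0.00604 and an adjusted p of 0.394. As a ratio of side means it stayed between 0.56 and 0.70 on the log2 scale when each column was left out. Slc38a4 had 366 and 267 on the positive side, against 165 and 232 on the negative side. Its log2 fold change in the authors' deposited table is 0.56 ± 0.25, with an unadjusted p of 0.0275 and an adjusted p of 0.749. Leaving out columns moved its log2 ratio between 0.43 and 0.94, the highest without negative-side column 2.

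**Figure D3:**
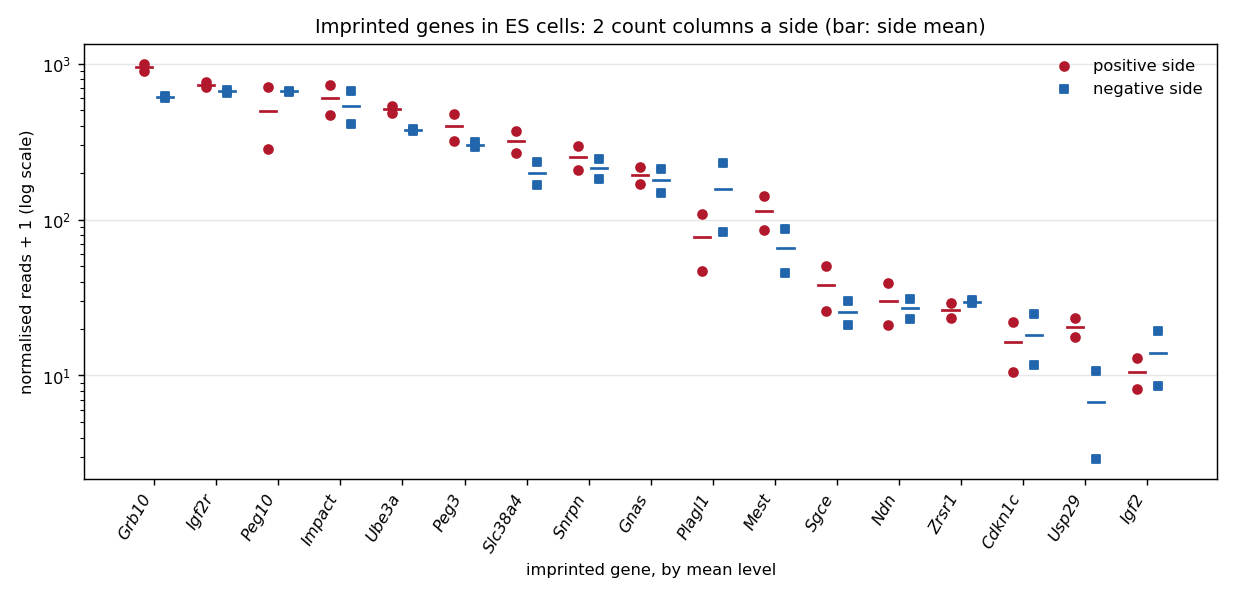
Normalised reads plus 1 (vertical log axis) of the 17 imprinted genes with a mean of at least 10 in ES cells, 1 point for each count column, 2 a side, with a bar at each side's mean. Grb10 stands with 898 and 996 above 600 and 621, and Peg10 has 1 positive-side column, at 283, far below its other columns.

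Ube3a had 481 and 533 normalised reads on the positive side, against 378 and 369 on the negative side of the ES cell table. Peg3 had 319 and 477 against 290 and 311, and its domain neighbour Usp29 16.8 and 22.4 against 1.90 and 9.66. All of these columns were ordered by side, at unadjusted p-values in the authors' deposited table of 0.0765 for Ube3a, 0.164 for Peg3 and 0.0724 for Usp29. Mest had 141 and 84.3 against 85.6 and 44.4, where the sides met, with an unadjusted p of 0.0685 in the authors' deposited table. Igf2r was nearly level, with 706 and 757 against 649 and 673, and a log2 fold change of 0.13 ± 0.21 in the authors' deposited table.

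Snrpn in ES cells had 296 and 207 normalised reads on the positive side, against 181 and 244 on the negative side. Impact had 723 and 469 against 406 and 662. Gnas had 167 and 217 against 209 and 146, and Ndn, a paternally expressed gene of the Prader-Willi region, 20.0 and 38.2 against 21.9 and 30.0. For each of these genes the sides overlapped, and the log2 fold changes in the authors' deposited table lay between 0.08 and 0.21. Peg10 had 708 and 283 normalised reads on the positive side, against 667 and 655 on the negative side. Only positive-side column 2 was low, and without it the log2 ratio turned from negative to 0.10. Sgce, its neighbour, had 49.5 and 25.0 against 20.0 and 29.0.

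Cdkn1c, which in blastocysts had reads on one side only, had 9.58 and 21.1 normalised reads on the positive side, against 23.8 and 10.6 on the negative side in ES cells. The 2 sides covered nearly the same range, and the authors' deposited table lists -0.08 ± 0.32. Zrsr1 had 27.9 and 22.4 against 29.5 and 28.0. Kcnq1, Phlda2 and Zim1 had means between 3.27 and 7.87 in the authors' deposited table and no adjusted p-value.

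Igf2 and Plagl1 in ES cells were both highest in negative-side column 2. Igf2 had 7.19 and 11.9 normalised reads on the positive side, against 7.61 and 18.4 on the negative side, and Plagl1 had 107 and 46.1 against 81.8 and 231. All 8 fibroblast markers had reads in ES cells, and their summed normalised reads were 1872 in negative-side column 2 and between 453 and 493 in the other columns. Col3a1 alone held 865 of the 1872. Thy1 went the other way and was lowest in that column, with 14.5 against 25.0 to 30.3 in the others. Each of the other markers was highest there, Twist2 by little, with 9.66 against 3.95 to 8.56. Without negative-side column 2 the log2 ratio of Plagl1 was -0.09 and that of Igf2 turned to 0.31. The authors' deposited table lists -0.37 ± 0.32 for Plagl1 and -0.15 ± 0.31 for Igf2. The part of feeder fibroblasts in these values was not tested. The 8 pluripotent markers were also listed, and 7 of them summed to between 3102 and 3821 on the positive side. On the negative side the range was 4206 to 4857. These sides did not overlap, as for 40.8% of single tested genes with solved reads and a mean up to 350. The share for sums is not known. All 8 had negative fold changes and none had an unadjusted p under 0.05 in the authors' deposited table. Fibroblast markers Col1a1 and Lum did, 2 of 7 tested, both lower on the positive side. So did 1 of 3 tested trophectoderm markers, Tfap2c, higher. Over all tested genes this share is 5.62%. No listed marker was called.

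In ES cells the highest members per kilobase were Impact with 110 normalised reads per kb, Snrpn with 107, Peg10 with 86.8, Grb10 with 85.7, Igf2r with 74.8 and Slc38a4 with 60.5. Each neighbouring pair in this order was reversed in at least 1 of the 4 columns. Impact and Snrpn were reversed in 2, as were Grb10 and Igf2r. Igf2, at 1.97 per kb, ranked at percentile 15.0 of 12997 genes, and in blastocysts at percentile 57.7 with 15.2 per kb. Phlda2 ranked at percentile 39.7 in ES cells and 79.1 in blastocysts, whereas Impact ranked at 96.1 in ES cells and 48.5 in blastocysts. The ES cell ranks are among protein-coding genes with a mean of at least 2.08. The blastocyst ranks are among genes of all types with any reads, so the percentiles have unlike backgrounds. Library preparation also differs between the materials, and these ranks were not tested against each other.

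**Figure D4:**
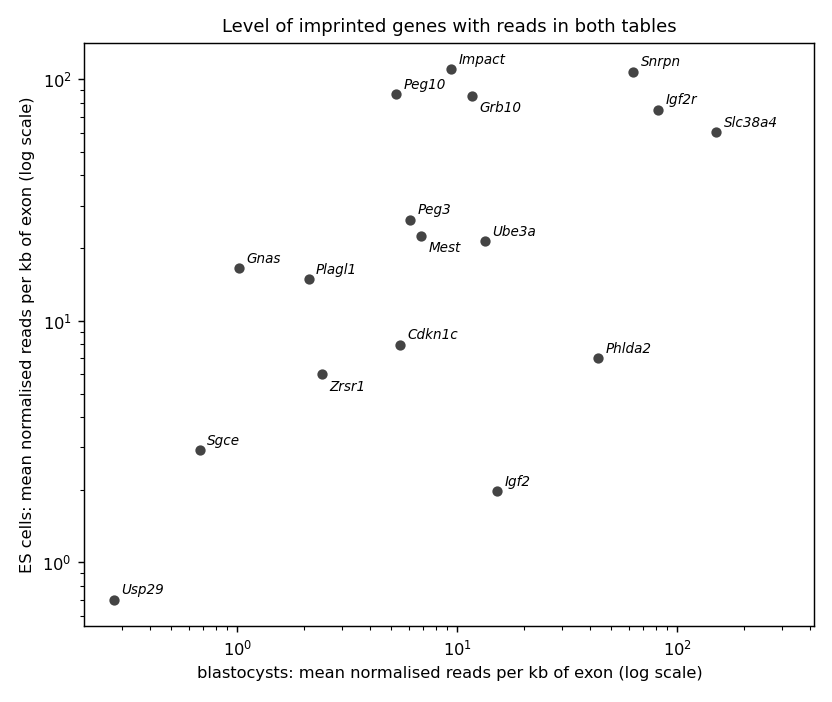
Mean normalised reads per kilobase of exon in blastocysts (horizontal log axis) and ES cells (vertical log axis) for the imprinted genes with reads in both tables, 1 point a gene. Igf2r, Snrpn and Slc38a4 are high in both, Impact lies at 110 in ES cells and 9.40 in blastocysts, and Igf2 and Phlda2 lie to the lower right.

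Both tables have an adjusted p-value for 16 members. The sign was positive in both for 7, negative in both for 4, and unlike for 5, of which 1 was positive in blastocysts only and 4 in ES cells only. The sides of the tables are not known to hold the same genotype, so a shared sign has no stated meaning. Grb10 and Slc38a4 were positive in both, and a difference between the materials was not tested.

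A further 51 imprinted genes outside the members gave no call either: 0 of 29 tested in blastocysts and 0 of 26 in ES cells. The called shares of all tested genes are 0.0986% and 0.261%. Their fold changes were positive for 18 and negative for 11 in blastocysts, with a median log2 fold change of 0.37, and positive for 16 and negative for 10 in ES cells, with a median of 0.04. Over all tested genes 48.3% were positive in blastocysts and 50.0% in ES cells. In blastocysts 4 had an unadjusted p under 0.05, namely Ddc, Sfmbt2, Jade1 and, with a mean under 10, Cdh15, and in ES cells Tspan32 and Ddc did, beside 6.21% and 5.62% of all tested genes. Ddc, the dopa decarboxylase gene next to Grb10 and imprinted in the heart, had 2.86, 0 and 0 normalised reads on the positive side, against 94.0, 6.69 and 23.0 on the negative side. Its log2 fold change in the authors' deposited table is -5.30 ± 1.63 with an adjusted p of 0.276. In ES cells Ddc had 21.6 and 18.4 against 37.1 and 55.1, with an unadjusted p of 0.0387 and an adjusted p of 0.839 in the authors' deposited table. Tspan32, a tetraspanin gene of the Kcnq1 domain, had 0.798 and 11.9 against 14.3 and 51.2 in ES cells, an unadjusted p of 0.0148 in the authors' deposited table. Both were highest in negative-side column 2, the one with the highest sum of fibroblast markers, whose part was not tested.

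Sfmbt2, a Polycomb-group gene needed for trophoblast, had 217, 309 and 480 normalised reads in blastocysts on the positive side, against 203, 132 and 80.6 on the negative side. Jade1, a chromatin reader gene, had 480, 487 and 592 against 381, 241 and 268. The sides did not overlap for either gene. With the positive side higher this was so for 3.14% of tested genes with solved reads and a mean up to 40. Sfmbt2, with a mean of 237, and Jade1, with a mean of 408, lie above that range, where the share is not known. Their log2 fold changes in the authors' deposited table are 1.27 ± 0.49 and 0.81 ± 0.35, with unadjusted p-values of 0.0096 and 0.0212 and adjusted p-values of 0.554 and 0.691. Sfmbt2, Jade1, Gab1 and Smoc1 are known, like Slc38a4, for imprinting through inherited histone methylation, and were grouped here after their values were seen. Gab1 has a log2 fold change of 0.56 ± 0.40 and Smoc1 one of -0.95 ± 0.60 in the authors' deposited table. Of these 5 genes 4 were positive and 1 negative, none called, beside a positive share of 48.3% over all tested genes. Sfmbt2 and Jade1 were named for their p-values, so no trend of the group can be read from this tally.

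A list of 28 factors that set or keep imprints also included Tet1, Tet2 and Tet3, whose enzymes take part in removing DNA methylation. Of these 28, 0 of 27 tested in blastocysts and 0 of 25 in ES cells were called. The called shares of all tested genes are 0.0986% and 0.261%. The factors' median log2 fold change was -0.01 and 0.00. None of the 27 had an unadjusted p under 0.05 in blastocysts, beside 6.21% of all tested genes. In ES cells Khdc3 and Dnmt3l did, both lower on the positive side. That is 2 of 25, beside 5.62% of all tested genes in either direction and 3.42% in that direction. The one with a mean of at least 10 was Dnmt3l, the cofactor of the de novo DNA methyltransferases. Dnmt3l had 362 and 419 normalised reads on the positive side, against 584 and 559 on the negative side, a log2 fold change of -0.48 ± 0.22 with an adjusted p of 0.731 in the authors' deposited table. Zfp57, whose protein binds the methylated TGCCGC core, has a log2 fold change of -0.74 ± 0.64 in the authors' deposited table for blastocysts. In the authors' deposited table for ES cells it is -0.31 ± 0.26.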

How the data were processed

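Per the submitters' processing notes, tools included STAR 2.4.0b, bedtools, SAMtools, featureCounts (Subread 2.0.1) and DESeq2 1.34.0 on GRCm38. Per the file headers, each of the 2 tables the authors deposited holds, for a gene, a mean of normalised counts (a signal), a log2 fold change with its standard error, the Wald statistic (a score), a p-value and a Benjamini-Hochberg adjusted p-value. Neither holds values per sample, so the authors' own test was used, with an adjusted p under 0.05 as a call.

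Whole reads per count column were solved from the deposited means, and a column was placed on a side by the sign of the fold changes it goes with (pandas 2.3.3, NumPy 2.4.6, Numba 0.67.0). For larger blastocyst means the reads also had to give back the deposited log2 fold change within 1e-06. Blastocyst read numbers above 0 were odd in only 2.97% to 5.23% of cases and ES cell ones in 49.8% to 51.3%. The procedure was tested on simulated data. Reads of PCR-amplified libraries are not independent molecules. Exon lengths came from GENCODE M21, matched for 98.8% of blastocyst and 99.9% of ES cell genes.

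The members and lists were chosen with earlier results of these data known. Members with a mean of at least 10 or an unadjusted p under 0.05 are described in full, with Dis3l, and other listed genes passing both; further genes were named after their values were seen. Ratios of side means have a pseudocount of 0.5. Alternatives were other thresholds, filters and gene sets for the calls, and leaving out columns.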

Additional observations from a re-analysis of the deposited data

How the results depend on the processing

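The count of called imprinted genes was 0 in both materials at an adjusted p under 0.01 or 0.1, with the adjustment over every gene with a p-value, over autosomal genes, and over genes with a mean of at least 50. Without adjustment it was 3 in blastocysts and 2 in ES cells. Over all genes, the count in blastocysts went from 15 to 9 at 0.01, 945 without adjustment and 8 among genes averaging 50 or more. In ES cells it went from 28 to 61 at 0.1, to 14 with autosomal genes only and to 604 without adjustment. The cause was not tested.

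The members' median log2 fold change was -0.05 in blastocysts and -0.07 without genes that overlap another member or an antisense gene, and in ES cells 0.13 and 0.34. When each column was left out in turn, an alternative chosen after seeing the data, the sides did not overlap for 1 to 8 members in blastocysts, the highest without negative-side column 2, and for 13 to 17 in ES cells, the highest without positive-side column 2. Fewer columns also raise the share among tested genes with solved reads and a mean up to 40 in blastocysts, to between 12.8% and 17.2%. Among those with a mean up to 350 in ES cells it rises to between 65.4% and 76.1%. The log2 ratio changed sign in 17 of 120 such values, for 8 genes, in blastocysts and in 11 of 68, for 7 genes, in ES cells. Calls were not refitted on the solved columns, with or without single columns. No paired analysis was possible because the columns carry no replicate number.

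Of the 27 members with reads in blastocysts, 8 had a mean under 10, and H19, with more reads, ran from 20.1 to 531 between columns. A change that missed the threshold is not shown to be absent.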
